A study of Cucumis melo with 62 samples.

Results

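CmAPRR2 (MELO3C003375.2), CmPPR1 (MELO3C003069.2) and CmKFB (MELO3C011980.2) are 3 regulators of pigment in melon fruit. They were taken by gene ID from the 29980 IDs measured by RNA-seq. The IDs stand without names in the deposited tables, so the symbols are names given to these IDs elsewhere.

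CmAPRR2 encodes a pseudo-response regulator of the nucleus, and alleles that lose its function are known in melon for pale rind and weaker flesh colour. CmPPR1 encodes a pentatricopeptide repeat protein, a class of organelle RNA-binding proteins, and was mapped in melon as a gene of flesh pigment intensity. CmKFB encodes a Kelch domain F-box protein, which in melon acts against the yellow flavonoid naringenin chalcone in the rind. Flesh colour itself comes from carotenoids and chlorophyll held in plastids, whereas flavonoids are made in the cytosol and stored elsewhere in the cell.

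The 62 libraries came from mature melon fruit harvested about 45 days after flowering, labelled only as fruit, so that flesh and rind are not told apart. In 1 table of 24 libraries, 8 cultivars grown at Weslaco in Texas in 2019 had 3 libraries each: TH-5, Infinite Gold, TH-6, OC164, CRUSER, HD252, HD150 and PRIMO. In the other table of 38 libraries, the cultivars TTDV and F39 were grown in Georgia, North Carolina, Uvalde (Texas), Arizona and California in 2019 and at Uvalde in 2018, with TTDV alone from Indiana (labelled as in Texas). Each of these 13 groups had 3 libraries except TTDV from Georgia, which had 2. Every library carries the genotype label WT, no treatment is given, and replicate numbers only name the libraries. The labels do not tie the libraries of a group to different plants, so p-values measure the spread between these libraries, which may be technical.

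The deposited values are variance-stabilised and close to log2 at high levels, and they could be turned back into normalised reads (reads divided by a library size factor). Differences are given in these log2-like units: a doubling counts 0.99 units between 5000 and 10000 reads, 0.81 between 100 and 200 reads, and 0.40 between 10 and 20 reads. The 2 tables were normalised apart and are not set against each other, and levels are not compared between the 3 genes because no gene lengths were at hand. Library totals ran between 4041908 and 21290476 reads in the Weslaco table and between 6251302 and 31333150 reads in the TTDV and F39 table. A call means a Benjamini-Hochberg adjusted p under 0.05 over all genes tested (limma).

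Some libraries stand apart in the TTDV and F39 table. The share of genes more than 1 unit away from the other libraries of the group was 36.03% in replicate 3 of TTDV from North Carolina and 34.5% in replicate 3 of F39 from Uvalde 2019 (called the 2 outlying libraries here), against a median of 6.90% over the 38 libraries. TTDV Uvalde 2019 replicate 2 followed at 24.5% and TTDV North Carolina replicate 1 at 17.2%, and they are not among these 2. F39 Georgia replicate 1 was as far from the mean of replicates 2 and 3 in 16.9% of genes. In earlier results of these data, replicates 2 and 3 held part of the TTDV pattern. All levels and the main fit keep them, and an alternative fit leaves them out for that reason. That fit has 1 F39 library from Georgia, so only its differences are used. Its adjusted p-values are listed only under the effects of processing, and none is counted as a call. For MELO3C024745.2, picked there as high in TTDV, replicates 2 and 3 had 1070 and 645 recovered reads and replicate 1 had 1 read, against 0 to 14 reads in the 12 F39 libraries outside Georgia and Uvalde 2019. The labels at Uvalde 2019 also run against those elsewhere for MELO3C016167.2, another gene picked there for its cultivar contrast. By this gene F39 Georgia replicates 2 and 3, with 29701 and 19161 recovered reads, lay with the other F39 libraries. In the other 5 environments shared by the cultivars, group means of this gene were 33.8 to 324.5 reads in libraries labelled TTDV, against 13435 to 27880 reads in libraries labelled F39. At Uvalde 2019 it averaged 15533 ± 7033 reads in libraries labelled TTDV and 702 ± 299 reads in libraries labelled F39 (SD, n = 3 each). Results that use these libraries are also given without them where that bears on a call. The labels at Uvalde 2019 were kept as given; if they were exchanged there, each difference between the cultivars in that environment would change sign.

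CmAPRR2, the pseudo-response regulator, differed strongly between the cultivars at Weslaco. Its level was highest in TH-5 and lowest in PRIMO, with 24.4-fold between the 2 means. TH-5 libraries had 14132, 5616 and 7569 normalised reads. Infinite Gold had 2300, 2970 and 4403 reads, and TH-6 had 3315, 1359 and 3415 reads. Every TH-5 library lay above every library of the other 7 cultivars, while Infinite Gold and TH-6 overlapped. For how many genes cultivars at Weslaco lie apart in this way was not computed.

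The middle of the order was crowded. OC164 had 1386, 1300 and 963 CmAPRR2 reads, and CRUSER had 1263, 1370 and 921 reads. HD252 spread from 519 and 756 to 2142 reads, and HD150 had 1332, 1106 and 396 reads. These 4 cultivars overlapped one another throughout. PRIMO had 209, 359 and 550 reads, below all libraries of OC164 and CRUSER but overlapping HD252 and HD150. Means were 9106 ± 4461 reads in TH-5, 3224 ± 1075 in Infinite Gold, 2696 ± 1159 in TH-6 and 373 ± 171 in PRIMO (SD, n = 3 each).

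The difference in CmAPRR2 among the 8 cultivars passed the limma F test (adjusted p = 4.10e-05), as did 58% of the 17131 genes tested. Of the 28 pairs of cultivars, 13 were called for CmAPRR2, where 16.1% of all gene-by-pair tests were called. TH-5 was higher than 6 of the 7 other cultivars, and PRIMO was lower than 5. TH-5 exceeded PRIMO by 4.47 ± 0.51 units (SE, adjusted p = 1.12e-05) and TH-6 by 1.75 ± 0.51 units (adjusted p = 0.0248). Infinite Gold was called above HD252, HD150 and PRIMO, and TH-6 above HD150 and PRIMO. None of the 7 pairs of neighbours in the order of levels was called after adjustment. The widest such step, TH-5 over Infinite Gold, was 1.43 units with an unadjusted 95% interval of 0.36 to 2.50, which leaves out 0 (adjusted p = 0.0631). The last step, HD150 over PRIMO, also had an unadjusted interval that leaves out 0 (0.12 to 2.26), and the narrowest, OC164 over CRUSER, was 0.04 units (-1.03 to 1.11). With no filter on low values the count of called pairs was 8, where 7.61% of gene-by-pair tests were called. In bulk fruit, fewer cells of a type and less RNA per cell cannot be told apart behind such differences.

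**Figure D1:**
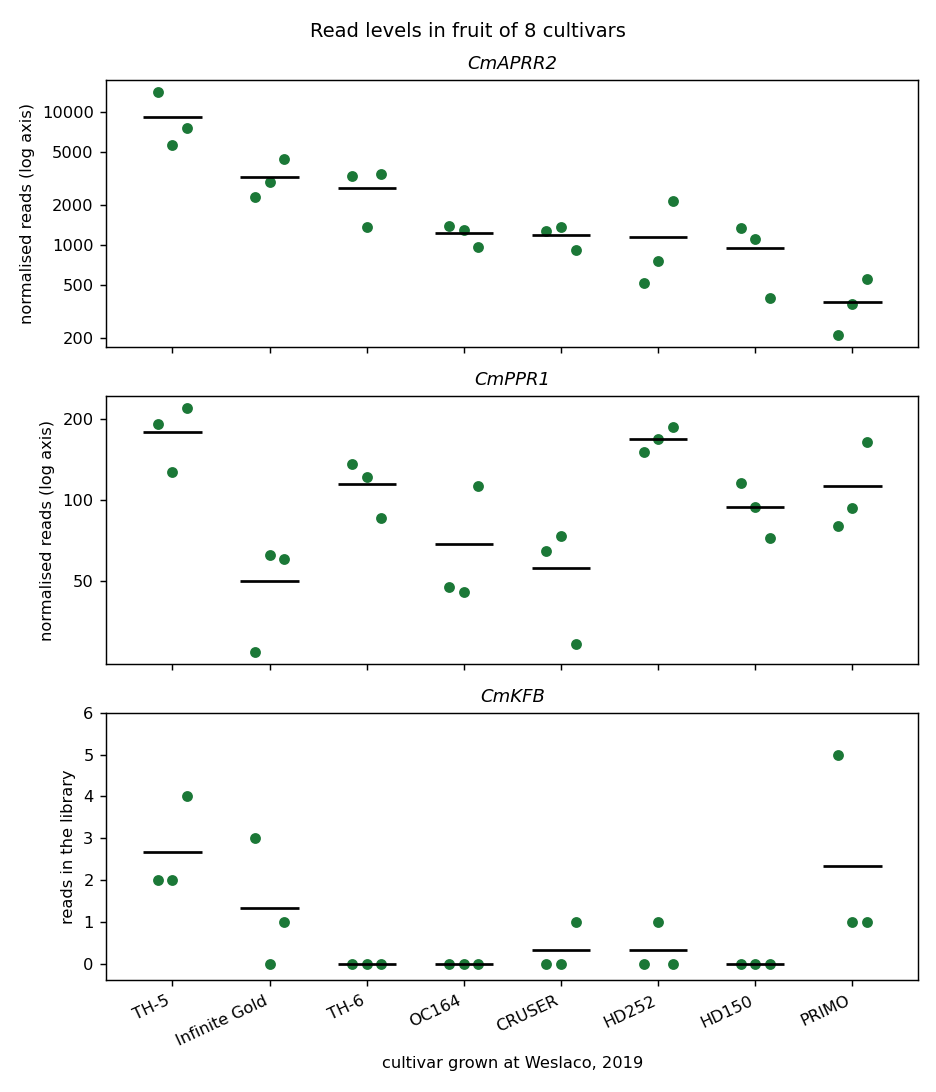
Levels of CmAPRR2 and CmPPR1 (normalised reads, log axis) and reads of CmKFB (linear axis) in the 3 libraries (points) of each cultivar at Weslaco, with the mean as a bar. TH-5 stands above every other cultivar for CmAPRR2, TH-5 and HD252 are high for CmPPR1, and CmKFB reaches at most 5 reads.

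CmPPR1, the pentatricopeptide repeat gene, had a smaller range at Weslaco and another order of cultivars. Its group means differed by up to 3.56-fold, again with TH-5 highest. TH-5 had 191, 126 and 218 normalised reads, and HD252 had 151, 168 and 185 reads. TH-6 had 136, 121 and 85.5 reads, and PRIMO had 80.3, 93.3 and 163 reads. HD252 lay above all 3 libraries of TH-6, whereas PRIMO overlapped both.

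HD150 had 115, 94.1 and 72.3 CmPPR1 reads, and OC164 had 47.5, 45.7 and 113 reads. CRUSER had 64.99, 73.4 and 29.2 reads. Infinite Gold had 27.5, 62.6 and 60.5 reads. No library of Infinite Gold or CRUSER reached the lowest library of TH-5, HD252, TH-6 or PRIMO. The share of genes with such a gap was likewise not computed. HD252, which was in the middle of the order for CmAPRR2, was next to TH-5 for CmPPR1, and Infinite Gold changed from next to the top to the bottom.

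Means of CmPPR1 were 178 ± 47 reads in TH-5, 168 ± 17 in HD252, 55.8 ± 23.5 in CRUSER and 50.2 ± 19.7 in Infinite Gold (SD, n = 3 each). The cultivars differed by the F test (limma, adjusted p = 0.00236), as they did for 58% of the 17131 genes tested. Of the 28 pairs 6 were called, against 16.1% of tests over all genes and pairs: TH-5 and HD252 were each higher than OC164, CRUSER and Infinite Gold. TH-5 exceeded Infinite Gold by 1.38 ± 0.30 units (SE, adjusted p = 0.00358), and HD252 exceeded OC164 by 1.06 ± 0.30 units (adjusted p = 0.0201). Again 0 of 7 pairs of neighbours were called. The step of HD252 over TH-6 was 0.46 units (95% interval -0.16 to 1.09). TH-5 and HD252 differed by 0.05 units (-0.58 to 0.68).

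Read depth ran partly alongside these levels. The CmPPR1 values rest on 13 to 279 reads a library at Weslaco. Library totals were 10869245 to 17836504 reads in TH-5 and 12564637 to 21290476 in HD252, against 4041908 to 7806433 in CRUSER and 8173881 to 16418963 in Infinite Gold. Across the 8 cultivars, mean CmPPR1 level and mean log2 library total had a Pearson r of 0.69 (exact permutation p = 0.0365, two-sided) and a Spearman rho of 0.52 (p = 0.197). Adjusted over the 2 genes these p-values were 0.0730 and 0.393, and r was 0.50 without CRUSER and HD252, the cultivars farthest from the median total. For CmAPRR2, r was 0.20 (exact permutation p = 0.645) and rho 0.14 (p = 0.752), and r was 0.73 without the same cultivars.

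**Figure D2:**
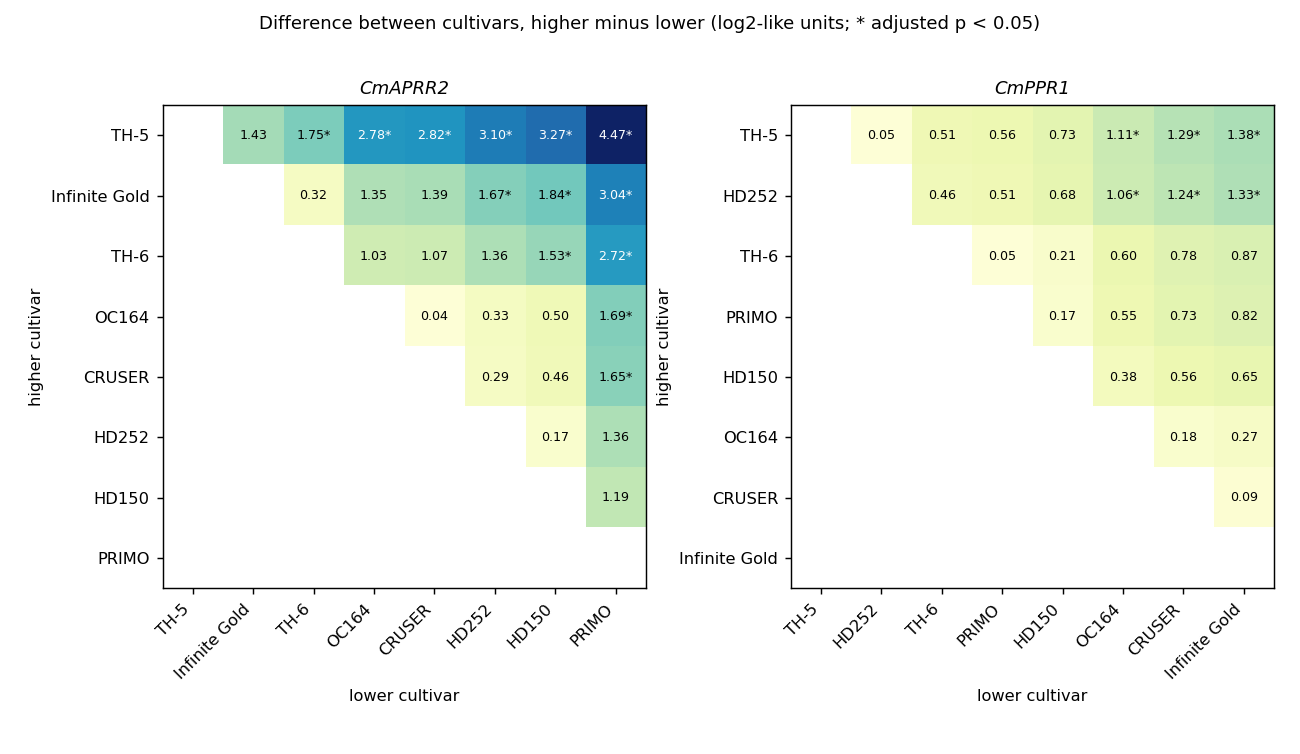
Difference between each pair of Weslaco cultivars in CmAPRR2 and CmPPR1, as the cultivar of the row minus that of the column in log2-like units, with cultivars ordered by mean level and an asterisk where the adjusted p was under 0.05. The 13 called pairs of CmAPRR2 involve mostly TH-5 and PRIMO, and the 6 called pairs of CmPPR1 all set TH-5 or HD252 above OC164, CRUSER or Infinite Gold.

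CmKFB, the Kelch F-box gene, was near the limit of detection in the fruit. Over all 62 libraries it had 72 reads in 995179527, and 22 libraries had any, which is 0.0724 RPM (reads per 1000000 library reads; exact Poisson 95% interval 0.0566 to 0.0911, counting error only). At Weslaco it had 21 reads in 10 of 24 libraries. TH-5 had 2, 2 and 4 reads, and PRIMO had 5, 1 and 1 reads. Infinite Gold had 3, 0 and 1 reads. CRUSER and HD252 had 1 read each in all, and TH-6, OC164 and HD150 had 0. TH-5 and PRIMO were thus the cultivars with a CmKFB read in every library, and they held 15 of the 21 reads.

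Summed over its libraries, CmKFB had 0.185 RPM in TH-5 (0.0800 to 0.365) and 0.206 in PRIMO (0.0827 to 0.424). These intervals again hold counting error only. A count of 0 in TH-6, OC164 or HD150 allows up to 0.0883, 0.0926 or 0.0835 RPM, taking 3 reads a group as the limit. CmKFB did not pass the filter on low values in either table and has no test in the main analysis. With no filter, the 8 cultivars differed (limma F test, adjusted p = 0.0214, where 30.1% of all genes were called). In that fit TH-5 and PRIMO were each called above TH-6, OC164 and HD150, with adjusted p of 0.0406 and 0.0337, where 7.61% of gene-by-pair tests were called. These comparisons rest on at most 5 reads in a library and on groups without any spread.

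In the TTDV and F39 table, CmAPRR2 ranged from 611 to 15204 normalised reads, and the libraries of a group were often far apart. Its mean was lower in TTDV than in F39 in 5 of the 6 shared environments as labelled, with California as the exception, and in 4 of the 5 without Uvalde 2019. No environment gave a called difference. In Georgia, TTDV had 3042 and 2381 reads, against 9852, 5255 and 2229 reads in F39. In North Carolina, TTDV had 5267, 3483 and 624 reads, against 6486, 6454 and 5286 reads in F39. North Carolina was the single environment in which the 2 cultivars did not overlap for CmAPRR2, by 5267 against 5286 reads at the border. The limma contrast called 4.07% of genes there, and the share of genes without overlap was not computed.

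At Uvalde in 2019, libraries labelled TTDV had 2317, 649 and 2605 CmAPRR2 reads, against 3531, 3365 and 1188 reads in those labelled F39. At Uvalde in 2018, TTDV had 4262, 6989 and 2328 reads, against 3476, 15204 and 8217 reads in F39. In both years the cultivars overlapped. In Arizona, TTDV had 5182, 1948 and 1895 reads, against 10040, 6075 and 3967 reads in F39. In California, TTDV had 1854, 2242 and 3840 reads, against 611, 1275 and 3296 reads in F39. The Arizona groups met only at the highest TTDV library, and the California groups were ordered the other way with wide overlap. TTDV from Indiana had 836, 2446 and 2260 reads.

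**Figure D3:**
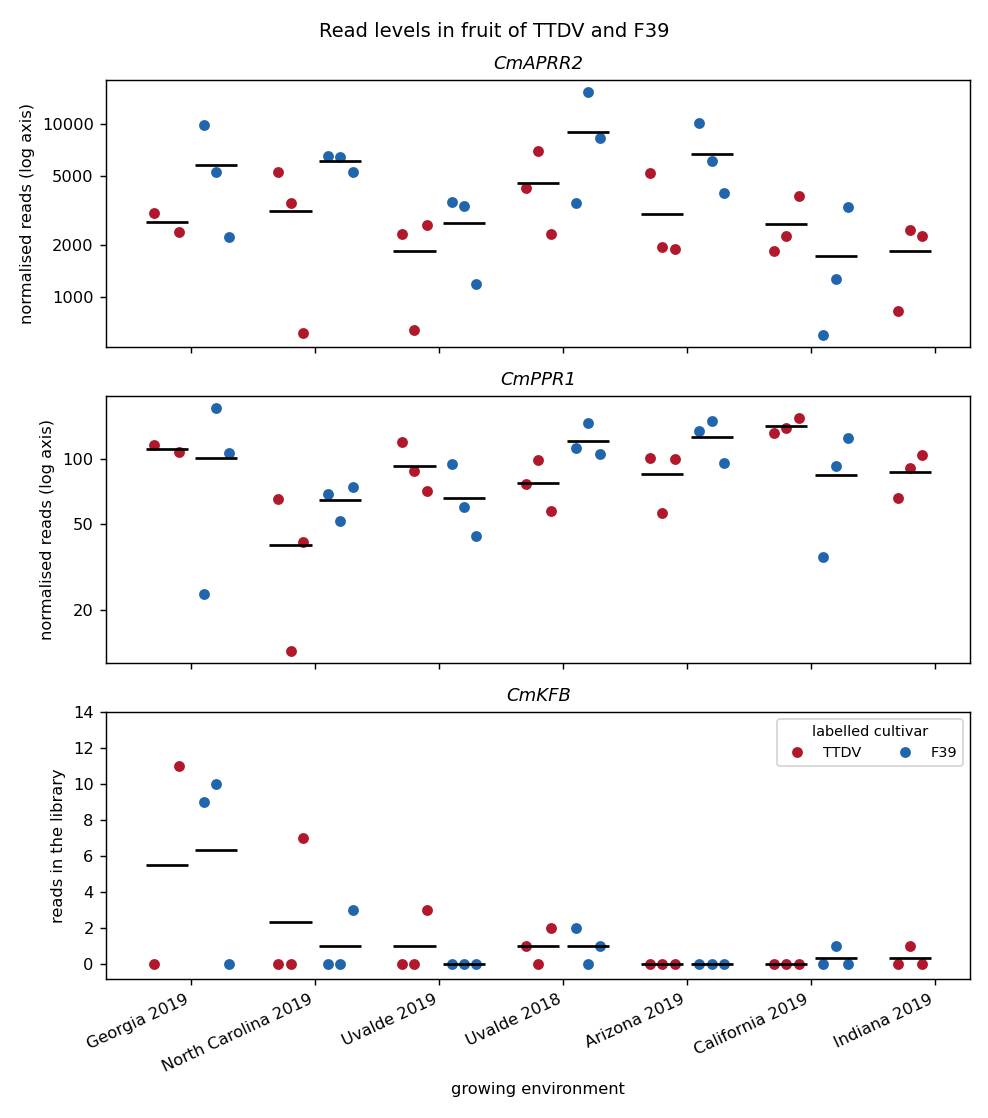
Levels of CmAPRR2 and CmPPR1 (normalised reads, log axis) and reads of CmKFB (linear axis) in libraries labelled TTDV (red, left) and F39 (blue, right) by environment, with group means as bars. As labelled, CmAPRR2 means are lower in TTDV except in California (the labels at Uvalde 2019 are in doubt). CmPPR1 is low in North Carolina in TTDV, while in F39 it is about as low at Uvalde 2019. Most CmKFB reads come from Georgia.

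Over the 6 environments CmAPRR2 was lower in TTDV by a mean of -0.68 ± 0.30 units, TTDV minus F39 (SE, 95% interval -1.29 to -0.07). This missed the threshold after adjustment (limma, adjusted p = 0.161), in a comparison that called 9.33% of 17383 genes. Without the Uvalde 2019 libraries, whose labels are in doubt, the difference was -0.70 ± 0.32 units (adjusted p = 0.128, with 21.6% of genes called). In single environments it lay between -1.40 ± 0.72 in North Carolina and 0.85 ± 0.72 in California. The North Carolina value leans on TTDV replicate 3, an outlying library. Without the 2 outlying libraries the difference there was -0.49 units (limma, adjusted p = 0.819). The share of all genes called was 2.26% in Georgia, 4.07% in North Carolina, 4.77% at Uvalde in 2019, 21.5% at Uvalde in 2018, 1.28% in Arizona and 16.8% in California. CmAPRR2 and CmPPR1 were called in none of the 6. The cultivar difference in CmAPRR2 was not shown to differ between environments (interaction adjusted p = 0.414, where 29.4% of genes were called; 0.301 without Uvalde 2019, where 26.1% were called).

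CmAPRR2 differed between environments in F39 (limma F test, adjusted p = 0.0407), as did 37.8% of genes. F39 group means were 8966 ± 5900 reads at Uvalde in 2018, 6694 ± 3084 in Arizona, 6076 ± 684 in North Carolina and 5778 ± 3838 in Georgia. They were lower, at 2695 ± 1308 reads, at Uvalde in 2019 and at 1727 ± 1399 in California (SD, n = 3 each). Without Uvalde 2019 the adjusted p was 0.0418 (37.6% of genes called), and without the 2 outlying libraries it was 0.0211. The call ended with no filter (0.0925), with quantile normalisation (0.0742), or without any 1 of 10 of the 18 F39 libraries. Among these, adjusted p was 0.172 and 0.103 without California replicates 1 and 2, and 0.0757 and 0.0669 without Uvalde 2018 replicates 2 and 3. It was between 0.0523 and 0.0583 without Uvalde 2019 replicate 3, Arizona replicate 1 or 2, or any North Carolina replicate.

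In TTDV, CmAPRR2 group means ran between 1847 ± 880 reads in Indiana and 4526 ± 2341 at Uvalde in 2018 (SD, n = 3 each). This was not a called difference (adjusted p = 0.637, where 31.7% of genes were called). The same held without Uvalde 2019 (adjusted p = 0.707, where 24.7% were called). The order of TTDV mean reads from high to low was Uvalde 2018, North Carolina, Arizona, Georgia, California, Uvalde 2019 and Indiana.

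Between the years at Uvalde, CmAPRR2 averaged 2276 ± 1158 reads in 2019 and 6746 ± 4693 reads in 2018 (SD, n = 6 each, both cultivars). The 2019 libraries lay between 649 and 3531 reads and overlapped the 2018 libraries at their lower end. CmAPRR2 was lower in 2019 by -1.49 ± 0.51 units, 2019 minus 2018 (SE, limma adjusted p = 0.0359), where 21.4% of genes were called. The direction held in all alternatives tried, but the call was lost in the fit over the compared groups alone (adjusted p = 0.0764) and with no filter (0.0707). It was also lost without the 2 outlying libraries (-1.24 units, 0.0532). Single libraries whose omission ended it were, at Uvalde in 2019, TTDV replicate 2 (-1.18 units, adjusted p = 0.1203) and F39 replicate 3 (-1.24, 0.0958). In 2018 they were F39 replicates 2 (-1.24, 0.103) and 3 (-1.46, 0.0649) and TTDV replicates 1 (-1.48, 0.0621) and 2 (-1.30, 0.0866).

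Each 2019 location with both cultivars was also set against the mean of the other 4. The share of genes called was 9.27% with Georgia on top, 19.6% with North Carolina, 20.3% with Uvalde, 4.82% with Arizona and 0.57% with California. CmAPRR2 was called in none of them. Its differences lay between -0.78 ± 0.40 units for California (adjusted p = 0.441) and 0.62 ± 0.40 for Arizona (adjusted p = 0.394). TTDV from Indiana minus TTDV at the other 5 locations of 2019 was -0.46 ± 0.56 units (adjusted p = 0.877), in a contrast that called 0.0173% of genes.

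CmPPR1 was low in North Carolina, most clearly in TTDV. There TTDV had 65.2, 12.9 and 41.2 normalised reads, against 68.97, 51.3 and 73.7 reads in F39. The 12.9 of TTDV replicate 2 was the lowest level of the gene in the 38 libraries, and it rests on 23 reads. Over both cultivars the mean was 52.2 ± 22.7 reads (SD, n = 6), against means between 79.2 ± 26.9 at Uvalde (n = 6) and 113 ± 43.4 in California (n = 6) at the other 4 locations. North Carolina minus the other 4 was -0.67 ± 0.20 units (SE, 95% interval -1.09 to -0.26, limma adjusted p = 0.0196). This contrast called 19.6% of genes. Without F39 Georgia replicates 2 and 3 the difference was -0.53 units. The contrast remained called without the Uvalde 2019 libraries (-0.75 units, adjusted p = 0.0101) and without the 2 outlying libraries (-0.73, 0.0191). It was lost without TTDV North Carolina replicate 2 (-0.50 units, adjusted p = 0.102) or F39 North Carolina replicate 2 (-0.62, 0.0656). On log2 of the recovered reads (voom) the difference was -1.05, and it remained called. CmPPR1 was called in none of the other 4 location contrasts, nor for Indiana or for the years at Uvalde (-0.25 ± 0.25 units, 2019 minus 2018).

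Elsewhere the order of the cultivars in CmPPR1 was not the same in every environment. In California, TTDV had 132, 139 and 155 reads, against 35.04, 92.8 and 124 reads in F39, with no overlap, in a contrast that called 16.8% of genes. At Uvalde in 2018, TTDV had 76.03, 98.9 and 57.3 reads, against 113, 146 and 105 reads in F39, again with no overlap but in the opposite direction. The contrast there called 21.5% of genes. For neither environment was the share of genes without overlap computed. In Arizona, TTDV had 101, 56.2 and 99.6 reads, against 134, 150 and 95.4 reads in F39. The Arizona groups overlapped at the lowest F39 library.

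At Uvalde in 2019, libraries labelled TTDV had 119, 87.4 and 70.6 CmPPR1 reads, against 94.6, 59.5 and 43.8 reads in those labelled F39. In Georgia, TTDV had 116 and 107 reads, against 23.6, 172 and 106 reads in F39. The F39 libraries from Georgia spanned 7.31-fold, with replicate 1 far below the other two. TTDV from Indiana had 65.5, 90.4 and 105 reads.

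The CmPPR1 mean was lower in TTDV in 3 environments and higher in 3 as labelled, and lower in 3 and higher in 2 without Uvalde 2019. Over the 6 environments TTDV minus F39 was -0.02 ± 0.15 units, with a 95% interval of -0.33 to 0.29 (limma, adjusted p = 0.959). The largest differences were 0.68 ± 0.36 units in California (adjusted p = 0.208) and -0.54 ± 0.36 in North Carolina (adjusted p = 0.417). Neither the interaction (adjusted p = 0.165) nor the environment differences in TTDV (0.0736) or F39 (0.288) passed the threshold with all libraries. Those tests called 29.4%, 31.7% and 37.8% of genes. Without F39 Georgia replicates 2 and 3, TTDV minus F39 in Georgia was 1.44 units, against 0.33 in all libraries. In that fit F39 replicate 1, at 23.6 reads, stands alone for F39 in Georgia, and its spread is taken from the remaining groups. Without replicate 1 instead, adjusted p was 0.0804 for the interaction and 0.0691 for environments in F39, and TTDV minus F39 in Georgia was -0.23 units. The cultivar difference in Georgia thus depends on which F39 libraries from there are kept. Environment differences in TTDV passed in the fit over TTDV libraries alone (0.0390) and without TTDV North Carolina replicate 1 (0.0407).

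**Figure D4:**
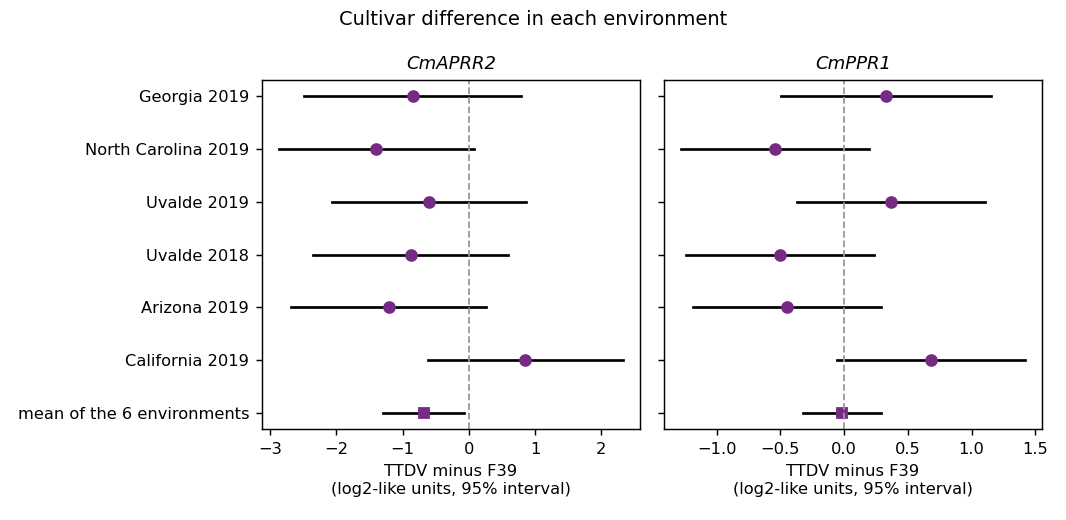
TTDV minus F39 for CmAPRR2 and CmPPR1 in each shared environment (circles) and as the mean of the 6 (squares), in log2-like units with 95% intervals from limma. As labelled, CmAPRR2 lies below 0 except in California (at Uvalde 2019, where labels are in doubt, an exchange would turn the sign), CmPPR1 lies on either side of 0, and no single environment has an interval that leaves out 0.

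CmKFB had 51 reads in 12 of the 38 TTDV and F39 libraries. Of these, 30 were from Georgia, where TTDV had 0 and 11 reads and F39 had 9, 10 and 0 reads. The Georgia libraries together had 0.273 RPM (exact Poisson 95% interval 0.184 to 0.390). This interval holds counting error only and not the spread between libraries, which had 0 to 11 reads. A further 7 reads lay in TTDV North Carolina replicate 3, a library that stood apart. No other library had more than 3 CmKFB reads, and TTDV and F39 from Arizona had 0 in all 6 libraries, which allows up to 0.0494 RPM in TTDV and 0.0568 in F39. With no filter, Georgia minus the other 4 locations was 0.44 ± 0.16 units (limma, adjusted p = 0.141), and no CmKFB comparison in this table was called.

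The scatter between libraries of a group differed between the 2 tested genes. In the TTDV and F39 table the residual SD of CmAPRR2 was 0.93 units, higher than that of 94.8% of genes, against a median of 0.41. For CmPPR1 it was 0.45 units, higher than that of 57.6% of genes. At Weslaco the residual SD was 0.67 units for CmAPRR2 and 0.37 for CmPPR1, against a median of 0.36. Groups took 84.2% of the variance of CmAPRR2 at Weslaco and 51.1% in the TTDV and F39 table, against medians over genes of 60.5% and 55.02%. For CmPPR1 the shares were 73.1% and 49.3%.

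No relation between the levels of the 3 genes across groups passed the test. Across the 13 TTDV and F39 groups, CmAPRR2 and CmPPR1 had a Pearson r of 0.25 (permutation p = 0.422) and a Spearman rho of 0.26 (p = 0.393). Across the 8 Weslaco cultivars r was 0.16 (exact permutation p = 0.690) and rho 0.05 (p = 0.935). Without the 2 groups farthest from the median of CmAPRR2, r was -0.09 over TTDV and F39 groups and -0.35 over Weslaco cultivars. A total of 6 such relations were computed, those with CmKFB included, and the smallest Benjamini-Hochberg adjusted p was 0.690 for r and 0.935 for rho.

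The gene most like CmAPRR2 across libraries was MELO3C027930.2, which no source at hand names. Likeness was the lower of the Pearson r over the 38 TTDV and F39 libraries and over the 24 Weslaco libraries, among 16583 genes tested in both tables. For MELO3C027930.2 these were 0.92 and 0.95, and for the next gene, MELO3C025310.2, 0.69 and 0.74. MELO3C027930.2 was the only gene with both r over 0.7. Like CmAPRR2, it averaged most in TH-5 at Weslaco (348 ± 183 reads), then in Infinite Gold (167 ± 63) and TH-6 (143 ± 50), and least in PRIMO (30.1 ± 13.1; SD, n = 3 each). In the other table it was highest in F39 from Uvalde 2018 (413 ± 227 reads) and lowest in F39 from California (78.98 ± 77.6), the same groups as for CmAPRR2. Its normalised reads were a median of 6.28% of those of CmAPRR2 at Weslaco and 4.42% in the other table. These shares also depend on gene lengths, which were not at hand. The gene was picked by its r over these same libraries, so a like order of groups follows in part from that choice. Libraries of a table share depth and group, so these correlations are descriptions.

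**Figure D5:**
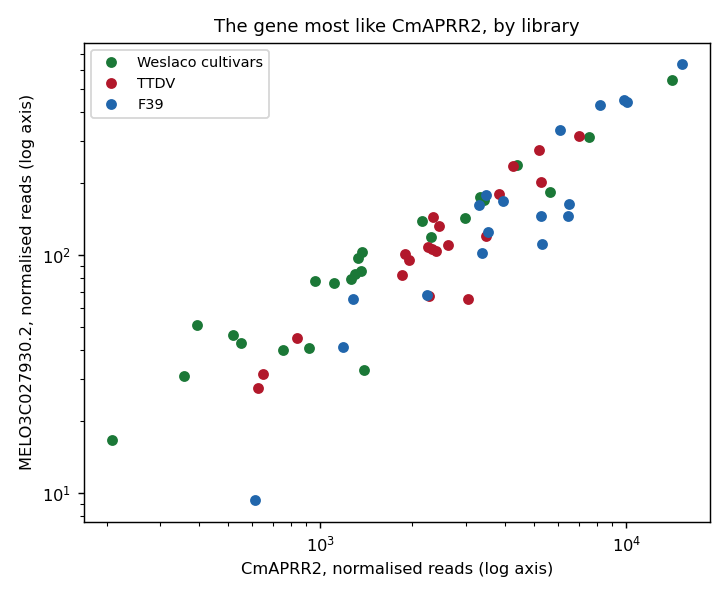
Normalised reads of MELO3C027930.2 against those of CmAPRR2 in all 62 libraries (both axes log), coloured by Weslaco cultivars, TTDV and F39. The points follow 1 band in which MELO3C027930.2 has between 1.52% and 12.8% of the reads of CmAPRR2. Weslaco libraries were normalised apart from the others, and gene lengths are not taken into account.

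For CmPPR1 the most like genes were MELO3C014009.2 (r of 0.73 over 38 libraries and 0.71 over 24) and MELO3C019440.2 (0.69 and 0.70). MELO3C014009.2 was again the only gene with both r over 0.7. It was lowest in TTDV from North Carolina (338 ± 106 reads) and highest in TTDV from California (2171 ± 765 reads), as CmPPR1 was. At Weslaco it averaged most in HD252 (1884 ± 327 reads) and least in Infinite Gold (605 ± 88 reads; SD, n = 3 each). MELO3C019440.2 averaged most in TH-5 at Weslaco (894 ± 367 reads) and least in Infinite Gold (26.3 ± 3.1 reads). In the other table it was highest in F39 from Uvalde 2018 (1189 ± 801 reads) and lowest in F39 from North Carolina (47.5 ± 12.9 reads). Both genes were likewise picked by r over the same libraries, so shared highest or lowest groups follow in part from that choice. CmKFB passed no filter, so likeness was not computed for it.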

How the data were processed

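RNA of melon fruit was made into mRNA-seq libraries, per the labels' protocols. The authors deposited 2 tables of variance-stabilised log2-like values, 1 for the 24 Weslaco libraries and 1 for the 38 TTDV and F39 libraries. DESeq and DESeq2 appear, without versions, in the submitters' processing notes. The aligner, annotation and genome build were not given in the sources used here. Columns were matched to samples by the last part of their titles. The transformation was inverted to normalised reads, and division by 1 factor per library gave whole numbers for 100% of values under 5000 reads (within 0.05), so whole reads and totals were recovered.

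Tests were run on the deposited log2 values with limma 3.58.1 (R 4.3.3), with 1 coefficient per group and moderated variances with trend and robust settings, and with Benjamini-Hochberg adjustment over all tested genes (over genes and 28 pairs together for pairs of cultivars). Genes needed at least 3 libraries 1 unit above the lowest value (9.08 reads), which left 17131 genes at Weslaco and 17383 in the other table. CmKFB had 0 and 2 such libraries and was not tested. Correlations used Python 3.11.15 and scipy 1.17.1, with exact permutation for 8 groups and 100000 resamples for 13. The scripts were tested on simulated data. Alternatives were no filter, a filter at 3 units (111 reads), quantile normalisation, no trend or robust moderation, voom on recovered reads, a fit over the compared groups, leaving out doubted libraries and leaving out each library.

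The 3 genes, lists and tests were chosen with earlier results of these data known. Beside the 3 genes, the rule named the 2 genes most like CmAPRR2 and the 2 most like CmPPR1. The reference table at hand matched 0 of the gene IDs, so no list of other pigment genes and no tissue markers could be formed, and no sequences are shown.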

Additional observations from a re-analysis of the deposited data

How the results depend on the processing

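Over the alternatives other than leaving out 1 library, 294 of 310 values for CmAPRR2 and CmPPR1 kept their direction and side of the threshold. Of the rest, 5 became weaker, 4 passed and 7 changed sign. On leaving out 1 library, 644 of 682 kept both, 18 became weaker, 1 passed and 19 changed sign. The cause of these changes was not tested. Most of these values belong to comparisons not called in the main fit, and an F test has no direction to keep. The 5 that became weaker were CmAPRR2 across environments in F39 (2 of 9 alternatives) and between years at Uvalde (3 of 8). The 4 that passed include values from the fit with 1 F39 library from Georgia. CmAPRR2 in F39 across environments had an adjusted p of 0.0925 with no filter and 0.0742 with quantile normalisation, and 0.0185 to 0.172 on leaving out 1 library. CmAPRR2 at Uvalde, 2019 minus 2018, was -1.49 with no filter and in the compared groups, and -1.24 without the 2 outlying libraries; leaving out 1 library gave -1.77 to -1.18. Its called pairs numbered 13, and 8 with no filter. Without F39 Georgia replicates 2 and 3, CmPPR1 gave adjusted p of 0.0126 for the interaction, 0.0216 for environments in F39 and 0.0216 in TTDV, and differences of -0.36 for Georgia, 0.17 for the cultivar mean and 0.0238 for Uvalde 2019 against other locations. In that fit F39 replicate 1 stands alone for F39 in Georgia, so these adjusted p-values are not counted as calls. Without F39 Georgia replicate 1 instead, CmPPR1 had an adjusted p of 0.0804 for the interaction and 0.0691 for environments in F39. Environments in TTDV gave 0.0390 in the compared groups and 0.0407 to 0.299 on leaving out 1 library.

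CmPPR1 in TTDV from Indiana, -0.01 in all libraries, was 0.0210 with quantile normalisation, 0.0879 with voom, and 0.0041 both without Uvalde 2019 and without the 2 outlying libraries. Leaving out 1 library gave -0.12 to 0.13 there, -0.0179 to 0.47 for CmPPR1 in Georgia, -0.11 to 0.0508 for its cultivar mean, -0.23 to 0.75 for TTDV minus F39 in Georgia and -0.81 to -0.50 for North Carolina. For CmAPRR2 it gave -0.73 to 0.0260 for Indiana and -1.10 to 0.0206 for TTDV minus F39 at Uvalde 2019.

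Counts over all genes moved by over 1.5 times for cultivar contrasts in Georgia (393; 7 to 969 over alternatives), North Carolina (707; 93 to 1162), Uvalde 2019 (830; 49 to 1002), Arizona (222; 145 to 703), California (2920; 2430 to 4444) and their mean (1621; 1209 to 3642). They also moved for Georgia (1611; 678 to 2586), Arizona (838; 543 to 1518) and California (99; 66 to 333) against other locations, Indiana (3; 0 to 16) and the years at Uvalde (3722; 1441 to 4415). Leaving out 1 library moved counts by over 1.5 times for cultivar contrasts in Georgia (38 to 456), North Carolina (219 to 1499), Uvalde 2018 (3729; 2466 to 3402), Arizona (92 to 206) and California (1634 to 2984), and for Georgia (25 to 1935), Arizona (295 to 1090), California (23 to 163) and Indiana (3 to 11). TTDV Georgia replicate 2 gave the lowest counts for Georgia. No paired analysis was possible because the labels give no replicate numbers shared between groups. CmKFB values rest on at most 11 reads a library.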
